A study of Oryza sativa with 12 samples.

Results

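Cyclins and cyclin-dependent kinases (CDKs) are the paired proteins that move plant cells through division. D cyclins bind A-type CDKs and open the way into DNA synthesis, A cyclins act from DNA synthesis onward, and B cyclins with the plant-specific B-type CDKs act at entry into mitosis. KRP proteins (KIP-related proteins) bind and inhibit cyclin-CDK complexes, and further CDKs with H, L and T cyclins act on other CDKs, on transcription or on splicing. In a rice panicle this machinery is known for floral meristems, young floral organs, germ cells and the early grain.

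The genes were taken from the annotation of the array's probe sets by name, as CYC with a class letter and number, CDK with a class letter and number, or KRP with a number, a leading Os being ignored. A total of 48 genes carried such a name, and 10 of them only with a hyphen after the class letter (CDKA-1 style), which was accepted. Of these, 39 had a probe set on the array, among 17905 genes that had one. The 39 comprised 3 A, 4 B, 9 D and 3 P cyclins, 5 other cyclins, 2 CDKA, 1 CDKB and 8 other CDK genes and 4 KRP genes. The genes CYCA3-1, CYCB1-5, CYCD2-1, CYCT1-1, CDKB1-1, CDKC-2, CDKF-2, KRP2 and KRP3 had no probe set by this annotation and were not analysed here. In 2 records the annotation merged names: the CYCB1-3 record (LOC4326914) also carries CycB1-1 as a name, and the CycT1;4 record (LOC4352229) also carries CYCT1-1. Where a gene had several probe sets (10 genes), the one brightest on average across the 12 arrays was read.

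The study hybridised total RNA of rice (Oryza sativa) panicles to Affymetrix arrays in 4 groups of 3 biological replicates. These were heat tolerant line 252 at high temperature, line 252 at optimal temperature, heat sensitive line 082 at high temperature and line 082 at optimal temperature. High temperature meant days of 37 °C and nights of 30 °C over 5 d, and optimal temperature days of 30 °C and nights of 25 °C; panicles of these treatments are called heated and optimal below. The panicle stage, the parentage of the lines and the array batches are not given in the sources used here.

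Values are MAS5 signals, linear probe set intensities that the software had scaled to a nearly equal trimmed mean (500.06 to 500.08) on every array. Array medians were 36.5 to 41.9 over the 6 high-temperature arrays, against 55.1 to 68.4 over the 6 optimal ones. The ratio of 3' to 5' signal of the Dap control transcript was 17.5 ± 1.92 (line 252) and 17.9 ± 1.65 (line 082) under heat, against 2.23 ± 0.11 (line 252) and 2.12 ± 0.34 (line 082) without it (SD, n = 3 each). The same ratio for rice actin was 26.0 ± 3.95 (line 252) and 29.6 ± 6.13 (line 082) under heat, against 31.0 ± 4.20 (line 252) and 5.54 ± 1.38 (line 082) without it. Phe, another control transcript, had mean ratios of 4.30 (line 252) and 4.87 (line 082) under heat, against 1.41 and 1.11 without it. For the Thr control they were 27.3 and 29.9, against 3.98 and 3.13, and for Lys 2.05 and 1.76, against 1.02 and 0.861. These 4 controls are not rice transcripts, and their ratios moved with temperature in both lines. Array processing and temperature therefore cannot be told apart here. The actin ratio was low in one group alone, and the part of all these measures in the results was not tested.

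Marker genes of panicle cell types were summed per array. Meiocyte markers (7 of 8 found) summed to 1602 to 2614 in heated and 6708 to 8158 in optimal panicles of line 252, and to 1129 to 1588 in heated and 4492 to 5376 in optimal panicles of line 082. Endosperm markers (6 of 7) summed to 98.8 to 357 in heated and 231 to 16574 in optimal panicles of line 252, and to 21.7 to 122 in heated and 130031 to 178450.3 in optimal panicles of line 082. Replicate 1 carried the 16574 in line 252, from the starch genes GBSS-I and SSII-3, while the glutelin and prolamin means of that group were at or below 30.0. Tapetum markers (5 of 6) summed to 12030 to 23898 in heated and 14197 to 16645 in optimal panicles of line 252, and to 16159 to 19271 in heated and 6240 to 9412 in optimal panicles of line 082. CP1 was the brightest tapetum marker in every group and GAMYB the next, with means of 5507 and 1790 in optimal panicles of line 082, while TDR had a mean of at most 13.8 in any group. The means of 3 of 5 tapetum markers in line 252 and 4 of 5 in line 082 were lower in heated panicles. In line 082 CP1 alone was higher under heat, with a mean of 17295, while the heated mean of GAMYB was 875. Floral MADS-box markers (7 of 7) summed to 42976 to 67664 in heated and 31210 to 45707 in optimal panicles of line 252, and to 43769 to 51783 in heated and 23534 to 26225 in optimal panicles of line 082. Yet the means of 5 of the 7 were lower in heated panicles of line 252, and of 2 in line 082. In line 252 only MADS1 (20416 in heated and 5601 in optimal panicles) and MADS16 (15626 and 4367) had higher means under heat. Green tissue markers (3 of 5) summed to 62310.0 to 71399 in heated and 40973 to 48619 in optimal panicles of line 252, and to 53157 to 70739.7 in heated and 39467 to 47974 in optimal panicles of line 082. Floral marker signal was found in every group, which does not tell the organs present, and the endosperm sums set the optimal panicles of line 082 apart. Panicle make-up or stage and temperature cannot be told apart here, and in whole panicles fewer cells of a type and less RNA per cell cannot be told apart either.

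Each comparison was tested with limma on log2(signal + 16) over 33614 probe sets, and a call of higher or lower needed both a log2 change of at least 1 in size and an adjusted p below 0.05. The pseudocount of 16 understates changes of low signals. Of the 39 genes 38 passed the filter on low signals, and counts below are over these 38; CYCF2-2 did not, with signals of 1.20 to 19.1 over the 12 arrays.

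High temperature was accompanied by low mitotic cyclin signals in both lines. In line 252, 16 of the 38 genes fell and 3 rose, where 19.4% and 9.42% of all probe sets tested were called lower and higher. In line 082, 9 fell and 6 rose, where 21.9% and 14.2% of all probe sets were called lower and higher, so that these counts were close to the background. The median log2 change of the 38 genes was -0.73 in line 252 and -0.37 in line 082, beside -0.20 and -0.15 over all probe sets. All 9 genes called lower in line 082 were among the 16 called lower in line 252, 56.2% of the line 252 list and 100% of the line 082 list. Of all probe sets 9.6% were called lower in both lines, which is 49.5% of those called lower in line 252 and 43.9% of those in line 082, so the first share was close to the background. KRP6 alone was called higher in both lines, 33.3% of the genes called higher in line 252 and 16.7% of those in line 082, while 5.02% of all probe sets were, which is 53.3% of those called higher in line 252 and 35.3% of those in line 082.

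**Figure D1:**
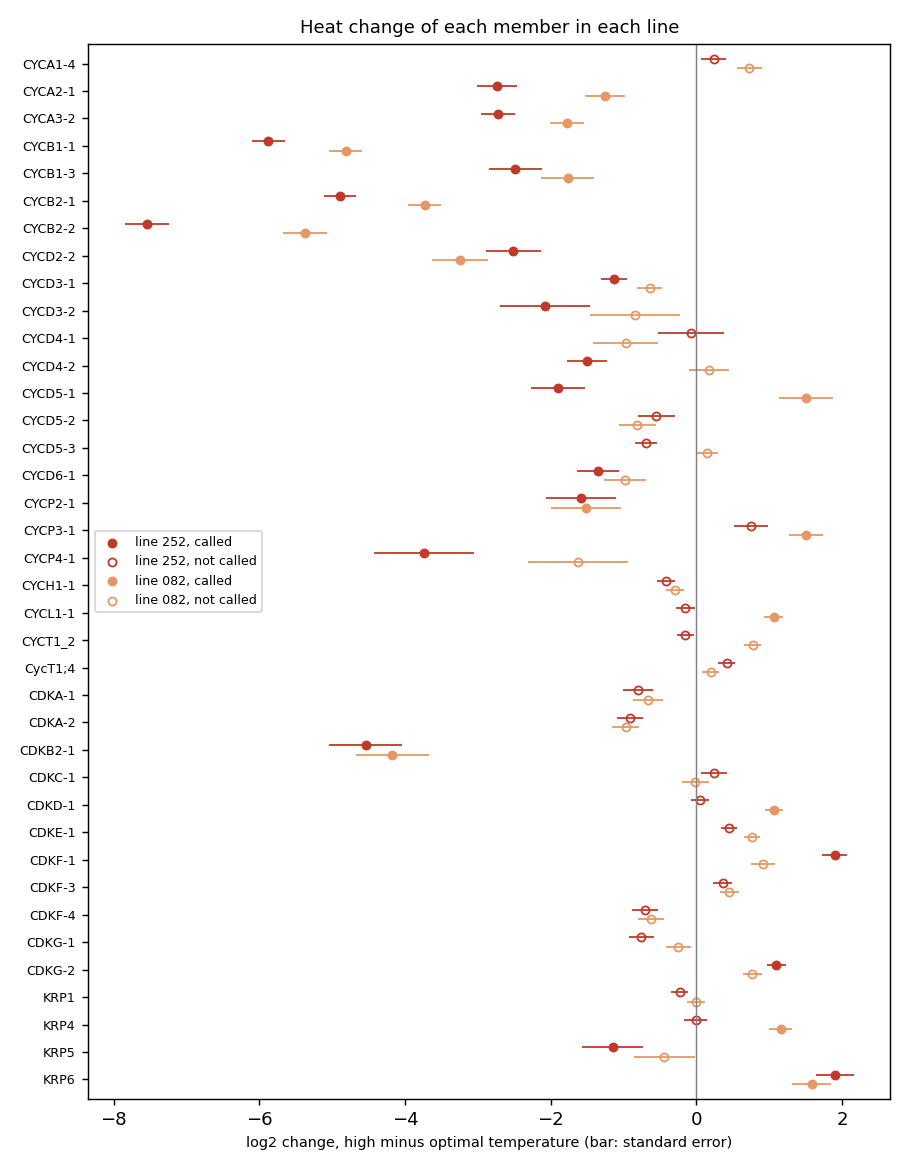
Log2 change, high minus optimal temperature (x axis), for each of the 38 genes tested (y axis, by class), in line 252 and line 082; points are limma estimates from 3 arrays a group, bars are standard errors and filled points passed the test. CYCB2-2, CYCB1-1, CYCB2-1 and CDKB2-1 lie farthest to the left in both lines, and CYCD5-1 lies left of 0 in line 252 (-1.90) and right of 0 in line 082 (1.51).

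All 4 B cyclins, the cyclins of mitotic entry, fell in both lines, with a median log2 change of -5.38 in line 252 and -4.27 in line 082. Of all probe sets, 9.6% were called lower in both lines. CYCB1-1 (LOC4327547) gave signals of 49.1, 27.4 and 33.8 in heated panicles of line 252, against 3173, 3589 and 2469 in optimal ones. In line 082 CYCB1-1 gave 23.3, 15.4 and 32.5 in heated panicles, against 1029.6, 1127 and 1091 in optimal ones. The heat groups lay near or below their array medians and did not overlap the optimal groups, and the log2 change was -5.88 ± 0.23 (adjusted p = 7.74e-09) in line 252 and -4.81 ± 0.23 (adjusted p = 1.61e-08) in line 082. CYCB2-2 (LOC4342121), which is known in rice as a partner of CDKB2-1, gave 2.16, 2.59 and 2.11 in heated panicles of line 252, against 3889, 3705 and 2701 in optimal ones. In line 082 it gave 22.8, 3.57 and 0.576 in heated panicles, against 1044, 741 and 1094 in optimal ones. At high temperature CYCB2-2 thus lay below the median of every array, and its log2 change was -7.54 ± 0.30 (adjusted p = 1.04e-08) in line 252 and -5.37 ± 0.30 (adjusted p = 8.05e-08) in line 082. Its size rests on the pseudocount, being -10.01 with 1 and -5.70 with 64 in line 252. A second CYCB2-2 probe set also fell, with log2 changes of -5.27 ± 0.31 (adjusted p = 1.68e-07) in line 252 and -4.66 ± 0.31 (adjusted p = 3.24e-07) in line 082.

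CYCB2-1 (LOC4336670) gave 29.9, 22.1 and 30.7 in heated panicles of line 252, against 1309, 1501 and 1047 in optimal ones. In line 082 it gave 23.0, 37.4 and 39.4 in heated panicles, against 557, 616 and 729 in optimal ones. Again no heat array reached an optimal array, with a log2 change of -4.89 ± 0.22 (adjusted p = 2.44e-08) in line 252 and -3.73 ± 0.22 (adjusted p = 1.29e-07) in line 082. The CYCB1-3 record gave 57.9, 44.3 and 27.9 in heated panicles of line 252, against 556, 262 and 198 in optimal ones, and 52.3, 36.9 and 22.3 in heated against 158, 146 and 177 in optimal panicles of line 082. It was the B cyclin with the smallest fall, -2.48 ± 0.37 (adjusted p = 1.46e-04) in line 252 and -1.77 ± 0.37 (adjusted p = 0.0013) in line 082. CDKB2-1 (LOC4346016), the mitotic kinase, gave 5.17, 21.4 and 104 in heated panicles of line 252, against 1141, 1351 and 737 in optimal ones. In line 082 CDKB2-1 gave 31.7, 46.5 and 18.6 in heated panicles, against 736, 747 and 1043 in optimal ones. The heat replicates of line 252 were widely spread, yet all 6 heat arrays lay below all 6 optimal arrays. CDKB2-1 fell in both lines, with a log2 change of -4.54 ± 0.50 (adjusted p = 1.67e-05) in line 252 and -4.18 ± 0.50 (adjusted p = 2.24e-05) in line 082. The summed meiocyte signal, mostly from ZEP1 and SPO11-4, was also lower at high temperature in both lines, as were the means of 7 of 7 markers in line 252 and 6 of 7 in line 082. The exception was MEL1, with a mean of 73.6 in heated and 60.8 in optimal panicles of line 082, and the part of germ cells in the fall was not tested.

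**Figure D2:**
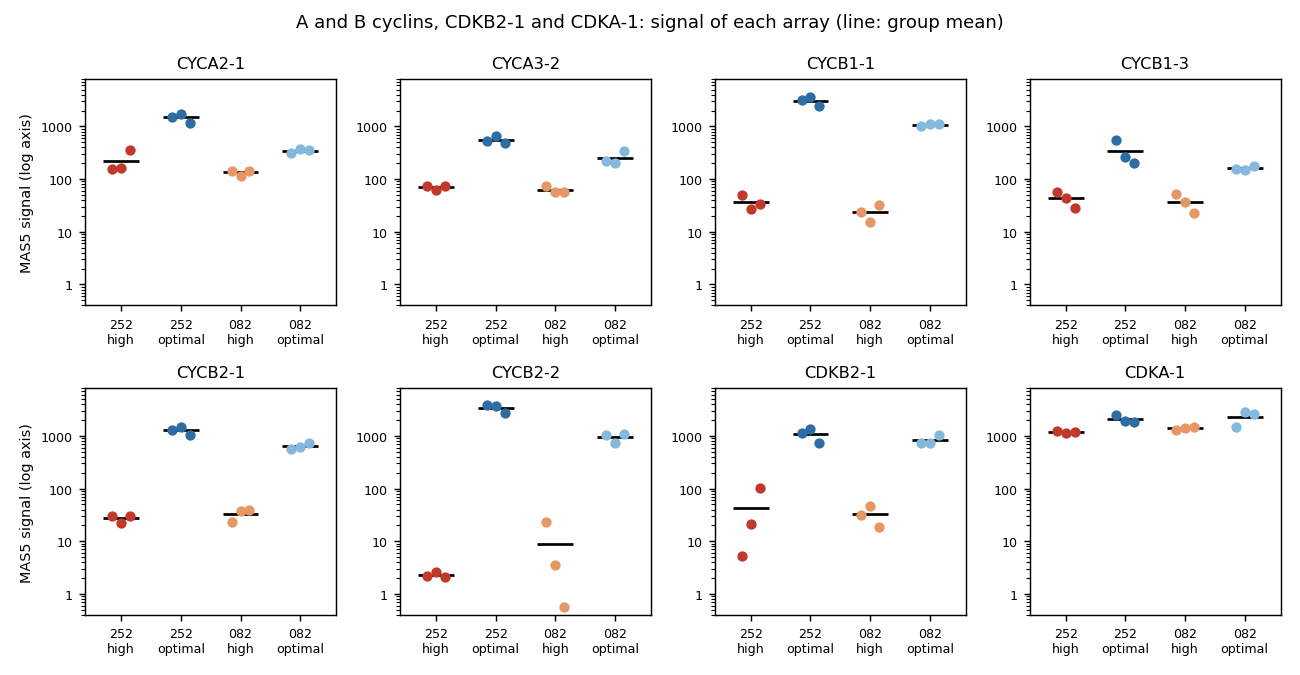
MAS5 signal (log axis) of 2 A cyclins, 4 B cyclins, CDKB2-1 and CDKA-1 on each of the 12 arrays, by line and temperature; points are arrays and lines are group means. For every gene shown the heat arrays of each line lie below its optimal arrays, with the narrowest gap for CDKA-1, which is at or above 1117 on every array.

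Of the 3 A cyclins 2 fell in both lines, where 9.6% of all probe sets did. CYCA2-1 (LOC4352280) gave 152, 162 and 349 in heated panicles of line 252, against 1494, 1757 and 1183 in optimal ones. In line 082 it gave 145, 115 and 141 in heated panicles, against 307, 367 and 349 in optimal ones. Replicate 3 of line 252 at high temperature was as high as the optimal arrays of line 082, but within each line the groups did not overlap, and the log2 change was -2.73 ± 0.27 (adjusted p = 7.77e-06) in line 252 and -1.25 ± 0.27 (adjusted p = 0.00187) in line 082. CYCA3-2 (LOC4352642), of the class linked to DNA synthesis, gave 75.3, 61.3 and 74.2 in heated panicles of line 252, against 530.1, 655 and 488 in optimal ones, and 74.1, 56.4 and 56.9 in heated against 223, 206 and 340.4 in optimal panicles of line 082. Its log2 change was -2.73 ± 0.23 (adjusted p = 2.62e-06) in line 252 and -1.77 ± 0.23 (adjusted p = 4.75e-05) in line 082. CYCA1-4, of a class that in Arabidopsis has a meiotic member, did not fall: its signals were 874 to 931 in heated and 619 to 857 in optimal panicles of line 252, and 795 to 953 in heated and 456 to 629 in optimal panicles of line 082. Its log2 change was 0.24 ± 0.17 (adjusted p = 0.275) in line 252 and 0.73 ± 0.17 (adjusted p = 0.00316) in line 082, below the fold minimum in both.

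The D cyclins, which carry growth and hormone signals to CDKA, were mostly lower in line 252, while few were called in line 082. In line 252, 6 of 9 fell and none rose, with a median log2 change of -1.35. Of all probe sets, 19.4% were called lower and 9.42% higher there, with a median of -0.20. In line 082, 1 fell and 1 rose, with a median of -0.81. There 21.9% of all probe sets were called lower and 14.2% higher, with a median of -0.15, so these counts did not exceed the background. CYCD2-2 (LOC4343936) fell in both lines. It gave 25.8, 40.2 and 135 in heated panicles of line 252, against 382, 404 and 378 in optimal ones, and 48.2, 44.2 and 38.5 in heated against 435, 547 and 692 in optimal panicles of line 082. The log2 change of CYCD2-2 was -2.51 ± 0.38 (adjusted p = 1.83e-04) in line 252 and -3.25 ± 0.38 (adjusted p = 1.90e-05) in line 082. CYCD5-1 (LOC4333455) moved in opposite directions. It gave 187, 283 and 223 in heated panicles of line 252, against 770.2, 926 and 996 in optimal ones, and 174, 242 and 345 in heated against 138, 90.0 and 31.5 in optimal panicles of line 082. At high temperature the 2 lines overlapped, while at optimal temperature every array of line 252 was above every array of line 082. CYCD5-1 fell in line 252, with a log2 change of -1.90 ± 0.37 (adjusted p = 0.0012), and rose in line 082, with 1.51 ± 0.37 (adjusted p = 0.00431).

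CYCD4-2 (LOC4345844) gave 457, 404 and 513 in heated panicles of line 252, against 961, 1805 and 1321 in optimal ones. In line 082 it gave 436, 243 and 274 in heated panicles, against 372, 242 and 221 in optimal ones. The optimal arrays of line 252 stood above all other arrays, and CYCD4-2 fell in line 252 (-1.50 ± 0.28, adjusted p = 7.49e-04) while its log2 change in line 082 was 0.17 ± 0.28 (adjusted p = 0.622). CYCD3-2 gave 33.2, 39.6 and 77.6 in heated panicles of line 252, against 152, 398 and 260.1 in optimal ones, and 89.2, 1.76 and 11.1 in heated against 92.9, 20.1 and 57.8 in optimal panicles of line 082. It was called lower in line 252 (-2.07 ± 0.62, adjusted p = 0.0153), a call that ended without replicate 1 at high (-1.89) or replicate 2 at optimal temperature (-1.76), and its change in line 082 was -0.84 ± 0.62 (adjusted p = 0.272) with overlapping groups. CYCD3-1 (-1.13 ± 0.17) and CYCD6-1 (-1.35 ± 0.29) also fell in line 252, and in line 082 they gave -0.64 ± 0.17 and -0.97 ± 0.29 on the log2 scale and were not called. The CYCD3-1 call was lost without replicate 2 of line 252 at optimal temperature (-0.99). CYCD4-1, CYCD5-2 and CYCD5-3 were called in neither line, with log2 changes of -0.07 ± 0.45, -0.55 ± 0.25 and -0.69 ± 0.15 in line 252 and -0.97 ± 0.45, -0.81 ± 0.25 and 0.15 ± 0.15 in line 082. A dimmer CYCD5-2 probe set did fall in line 252 (-2.69 ± 0.40, adjusted p = 1.55e-04), so the 2 probe sets of this gene differed in size and call but not in direction.

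**Figure D3:**
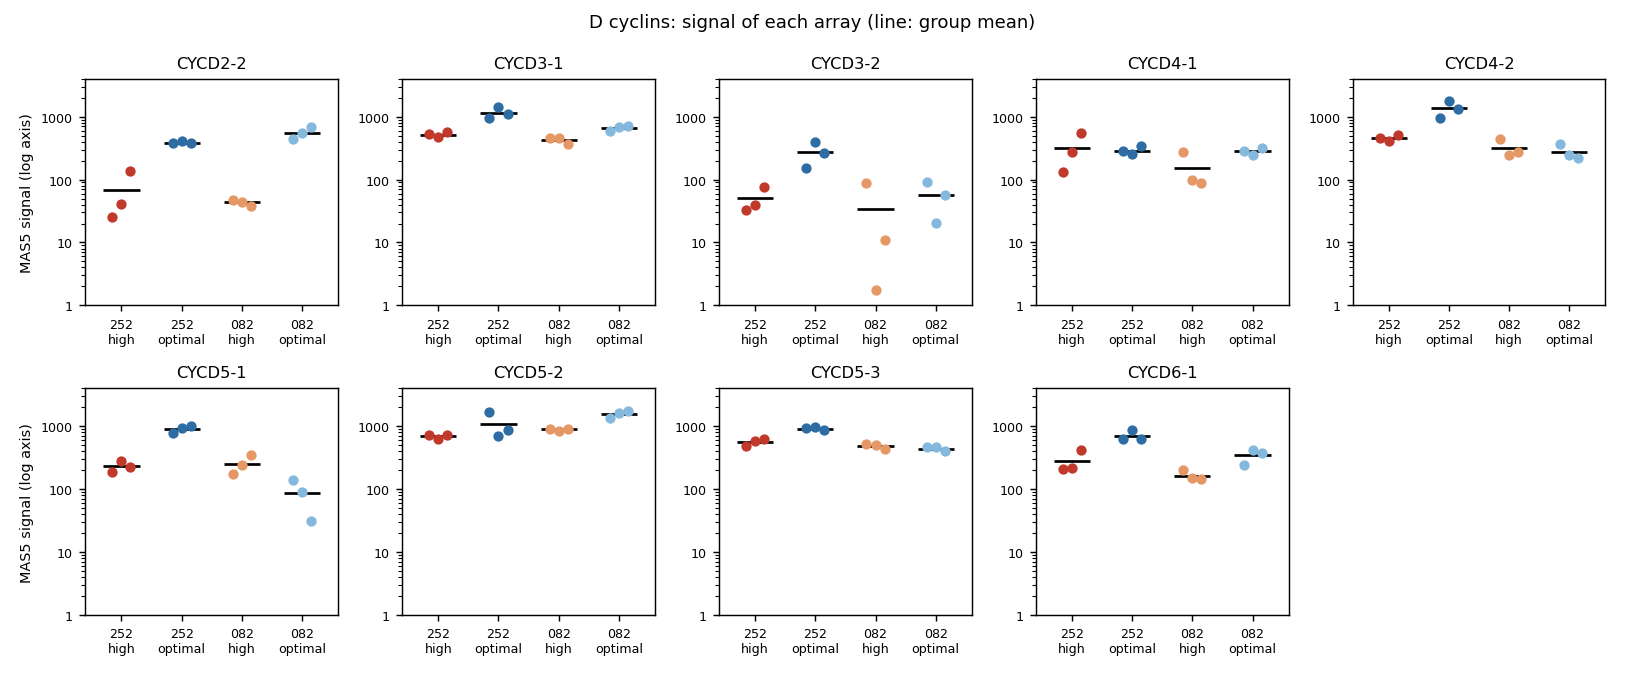
MAS5 signal (log axis) of the 9 D cyclins on each of the 12 arrays, by line and temperature; points are arrays and lines are group means. In CYCD4-2 and CYCD5-1 the 3 optimal arrays of line 252 stand above the other 9, and in CYCD2-2 both heat groups lie below both optimal groups.

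The P cyclins resemble the yeast phosphate-signalling cyclin PHO80 and differed among themselves. CYCP4-1 (LOC4349405) gave 79.6, 5.84 and 329 in heated panicles of line 252, against 1167, 1306 and 1067 in optimal ones, and 87.5, 73.1 and 57.4 in heated against 306, 269 and 198 in optimal panicles of line 082. It fell in line 252 (-3.73 ± 0.69, adjusted p = 7.34e-04), with heat replicates far apart, and in line 082 its change of -1.62 ± 0.69 (adjusted p = 0.0619) was not called although the groups did not overlap. CYCP2-1 was dim throughout, at 56.0, 4.45 and 26.5 in heated panicles of line 252, against 94.9, 105 and 111 in optimal ones, and 2.05, 31.0 and 22.4 in heated against 51.6, 118 and 68.6 in optimal panicles of line 082. It was called lower in both lines (-1.59 ± 0.48 and -1.52 ± 0.48). The call in line 252 ended without heated replicate 2 (-1.11), and in line 082 without heated replicate 1 (-1.11) or optimal replicate 2 (-1.25). CYCP3-1 ran the other way, at 1148, 1089 and 1136 in heated panicles of line 252, against 529, 825 and 661 in optimal ones, and 934, 1149 and 1132 in heated against 489, 246 and 403 in optimal panicles of line 082. CYCP3-1 rose in line 082 (1.51 ± 0.23, adjusted p = 1.38e-04), and in line 252 its change of 0.75 ± 0.23 (adjusted p = 0.0172) was under the fold minimum.

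Neither A-type CDK passed the test in either line. CDKA-1 (LOC4331415), the partner of D and A cyclins, gave 1251, 1117 and 1186 in heated panicles of line 252, against 2447, 1952 and 1872 in optimal ones. In line 082 CDKA-1 gave 1271, 1419.8 and 1486 in heated panicles, against 1493, 2803 and 2598 in optimal ones. Heat arrays lay below optimal arrays in each line, narrowly in line 082, and the log2 changes of -0.80 ± 0.21 (adjusted p = 0.00674) in line 252 and -0.67 ± 0.21 (adjusted p = 0.0152) in line 082 were under the fold minimum. CDKA-2 (LOC4328135) gave 419, 422 and 386 in heated panicles of line 252, against 748, 864 and 744 in optimal ones, and 514, 405 and 312 in heated against 717, 850.0 and 854 in optimal panicles of line 082. Its log2 changes of -0.91 ± 0.18 (adjusted p = 0.00121) in line 252 and -0.97 ± 0.18 (adjusted p = 5.94e-04) in line 082 also stayed just under the minimum. Both of its dimmer probe sets passed it, with -1.48 ± 0.25 (adjusted p = 3.71e-04) and -1.25 ± 0.24 (adjusted p = 0.00107) in line 252 and -1.01 ± 0.25 (adjusted p = 0.00409) and -1.16 ± 0.24 (adjusted p = 0.00143) in line 082.

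Of the 12 other CDKs and cyclins tested, CDKF-1 and CDKG-2 rose in line 252, CDKD-1 and CYCL1-1 rose in line 082, and none fell. Of all probe sets, 9.42% were called higher and 19.4% lower in line 252, and 14.2% and 21.9% in line 082. These few rises were thus close to the background. CDKF-1 (LOC4340934), in Arabidopsis a kinase that activates other CDKs, gave 5138, 6696 and 4989.9 in heated panicles of line 252, against 1248, 1554 and 1669 in optimal ones. In line 082 CDKF-1 gave 4885, 5379 and 4444 in heated panicles, against 2139.6, 2689 and 2982 in optimal ones. Every heat array exceeded every optimal array, and CDKF-1 rose in line 252 (1.90 ± 0.17, adjusted p = 2.85e-06), with a change just under the minimum in line 082 (0.92 ± 0.17, adjusted p = 5.04e-04). CDKG-2 (LOC4336224), whose Arabidopsis relatives act in splicing, gave 4608, 5715 and 5033 in heated panicles of line 252, against 2465, 2270.1 and 2386 in optimal ones, and 4705, 5456 and 4998 in heated against 2555, 3012 and 3364 in optimal panicles of line 082. It rose in line 252 (1.10 ± 0.13, adjusted p = 2.67e-05) and had a log2 change of 0.77 ± 0.13 (adjusted p = 2.90e-04) in line 082. Its other probe sets gave 0.56 ± 0.16 (adjusted p = 0.0131) and 0.05 ± 0.16 (adjusted p = 0.838) in line 252, so the call rests on the brightest one. CDKD-1 (LOC4338689), a CDK-activating kinase, gave 3350.2, 3579 and 2953 in heated panicles of line 252, against 2754, 3520.1 and 3249.7 in optimal ones, and 3912, 4428 and 4296 in heated against 1959, 2115 and 1955 in optimal panicles of line 082. CDKD-1 overlapped between temperatures in line 252 (0.06 ± 0.12) and rose in line 082 (1.06 ± 0.12, adjusted p = 1.85e-05).

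CYCL1-1 (LOC4325450), of a class tied to splicing, gave 1899, 2274 and 2411 in heated panicles of line 252, against 2192, 2555 and 2549.6 in optimal ones, and 2274, 2517 and 2428 in heated against 1257, 1032 and 1147 in optimal panicles of line 082. The optimal arrays of line 082 stood below the other 9, and CYCL1-1 rose in line 082 (1.06 ± 0.13, adjusted p = 2.79e-05) with overlapping groups in line 252 (-0.15 ± 0.13). The line 082 call was lost without replicate 2 at optimal temperature (0.99). The other transcription-linked members, CYCH1-1, CYCT1_2 and CycT1;4, were called in neither line, with log2 changes between -0.42 ± 0.12 (CYCH1-1 in line 252) and 0.78 ± 0.12 (CYCT1_2 in line 082). CDKC-1, CDKE-1, CDKF-3, CDKF-4 and CDKG-1 were not called either, with log2 changes between -0.76 ± 0.17 (CDKG-1 in line 252) and 0.76 ± 0.11 (CDKE-1, the Mediator kinase, in line 082). A second CDKF-4 probe set was called lower in line 252 (-1.36 ± 0.30, adjusted p = 0.00259) and in line 082 (-3.43 ± 0.30, adjusted p = 2.11e-06), and a second CDKG-1 probe set in line 082 (-1.33 ± 0.47, adjusted p = 0.029). The brightest probe sets gave -0.70 ± 0.18 and -0.62 ± 0.18 for CDKF-4 in lines 252 and 082, and -0.25 ± 0.17 for CDKG-1 in line 082. The probe sets of these genes thus differed in size and call but not in direction.

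Of the KRP inhibitors, KRP6 rose in both lines, KRP4 rose in line 082, KRP5 was called lower in line 252 and KRP1 was called in neither. KRP6 (LOC4347280) gave 2362, 2326 and 3526 in heated panicles of line 252, against 939, 637 and 589.8 in optimal ones. In line 082 KRP6 gave 2264, 1819 and 2719.8 in heated panicles, against 1073, 563 and 661 in optimal ones. All 6 heat arrays exceeded all 6 optimal arrays, and KRP6 rose in both lines, with a log2 change of 1.90 ± 0.26 (adjusted p = 9.33e-05) in line 252 and 1.58 ± 0.26 (adjusted p = 2.69e-04) in line 082. A second, dim KRP6 probe set was not called, at 1.02 ± 0.46 (adjusted p = 0.0862) in line 252 and -0.53 ± 0.46 (adjusted p = 0.35) in line 082. With the mean of its probe sets the line 082 call of KRP6 ended (0.53, adjusted p = 0.105), so the rise called in both lines rests on the brightest probe set. KRP4 (LOC4348872) gave 967, 1299 and 1427 in heated panicles of line 252, against 1104, 1310.0 and 1265 in optimal ones, and 1619, 1603 and 1561 in heated against 739.6, 617 and 773 in optimal panicles of line 082. The groups of line 252 overlapped (-0.01 ± 0.16), while KRP4 rose in line 082 (1.16 ± 0.16, adjusted p = 6.17e-05). A second, dim KRP4 probe set did not pass the filter on low signals. Its means in line 082 were 32.1 in heated and 40.8 in optimal panicles, with overlapping groups, so the KRP4 rise rests on the brightest probe set.

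KRP5 (LOC4331554) gave 127, 308 and 704 in heated panicles of line 252, against 647, 741 and 705 in optimal ones, and 216, 172 and 252 in heated against 283, 270.1 and 324 in optimal panicles of line 082. The heat replicates of line 252 were widely spread and the highest of them matched the optimal arrays. KRP5 was called lower in line 252 (-1.15 ± 0.42, adjusted p = 0.0402), a call that ended without replicate 1 at high temperature (-0.56, adjusted p = 0.154), without replicate 2 at high temperature (-1.15) and without any 1 of the optimal replicates (-1.20, -1.10 and -1.14), and its size without replicate 3 at high temperature was -1.73. In line 082 KRP5 had a log2 change of -0.44 ± 0.42 (adjusted p = 0.4). KRP1 (LOC4330816) gave 1997, 1920.0 and 2047 in heated panicles of line 252, against 2528, 2039.5 and 2467 in optimal ones, and 1861, 2228 and 2089 in heated against 2159, 1978 and 2059.7 in optimal panicles of line 082. Its groups overlapped in every comparison, with log2 changes of -0.23 ± 0.12 (adjusted p = 0.142) in line 252 and -0.01 ± 0.12 (adjusted p = 0.964) in line 082 and 95% intervals of -0.49 to 0.03 and -0.27 to 0.26.

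**Figure D4:**
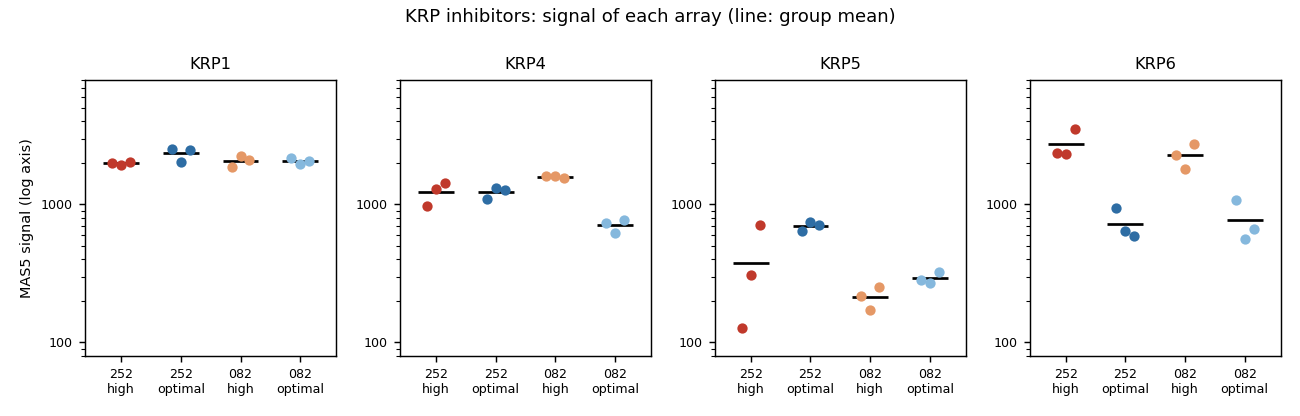
MAS5 signal (log axis) of the 4 KRP inhibitor genes on each of the 12 arrays, by line and temperature; points are arrays and lines are group means. KRP6 is higher on every heat array than on any optimal array, KRP4 is lowest in line 082 at optimal temperature, and KRP5 is widely spread among the heat arrays of line 252.

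Other genes of the cell cycle were listed by name for comparison (retinoblastoma proteins, replication origin and helicase proteins, CDC25, CKS, SMR and MYB3R proteins among them), and 22 of the 25 found by name were tested; E2F proteins and WEE1 were not analysed here. In each line 15 of the 22 fell and 1 rose, and the 15 were the same genes in both lines, where 19.4% and 21.9% of all probe sets were called lower in lines 252 and 082 and 9.6% in both. That identity rests on single arrays, since the line 252 call of ORC4 ended without any 1 of 3 arrays (-0.91 to -0.95) and the line 082 calls of MCM9 without any 1 of 3 (-0.96 to -1.01) and PCNA without either of 2 (-0.82 and -0.92). The median log2 change was -2.51 in line 252 and -2.06 in line 082. Helicase subunits that unwind DNA at replication origins led the list: in line 252 the log2 change was -5.65 ± 0.47 for MCM3, -5.45 ± 0.61 for MCM5, -5.31 ± 0.69 for MCM4 and -4.89 ± 0.57 for MCM2. In line 082 it was -5.50 ± 0.47 for MCM3, -5.12 ± 0.61 for MCM5, -4.69 ± 0.69 for MCM4 and -5.16 ± 0.57 for MCM2. Adjusted p-values of these 4 ran between 1.99e-06 (MCM3 in line 252) and 1.05e-04 (MCM4 in line 082). Named after their values were seen, RBR1, a retinoblastoma-related target of D cyclin kinases, fell, with a log2 change of -4.68 ± 0.57 (adjusted p = 3.47e-05) in line 252 and -2.90 ± 0.57 (adjusted p = 8.98e-04) in line 082, and EL2, a CDK inhibitor of the SMR family, rose by 1.67 ± 0.21 (adjusted p = 3.80e-05) in line 252 and 2.18 ± 0.21 (adjusted p = 3.79e-06) in line 082. Their relatives RBR2 and SMR1 were called in neither line. RBR2 gave -0.31 ± 0.15 (adjusted p = 0.105) in line 252 and -0.28 ± 0.15 (adjusted p = 0.135) in line 082. SMR1 gave -0.25 ± 0.59 (adjusted p = 0.758) in line 252 and 1.24 ± 0.59 (adjusted p = 0.0925) in line 082.

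Between the lines at high temperature, no cyclin, CDK or KRP gene was called different by limma, where 1.76% of all probe sets were called. At an unadjusted p under 0.05 there were 4 of 38 (CYCD6-1, CDKD-1, CDKF-4 and KRP4, named after their values were seen), where 12.3% of all probe sets were. Line differences (252 minus 082) ran between -0.39 ± 0.16 for KRP4 and 0.94 ± 0.45 for CYCD4-1 on the log2 scale. The 95% interval was -0.08 to 0.90 for CYCB1-1, -0.65 to 0.32 for CYCB2-1, -1.01 to 0.31 for CYCB2-2 and -1.13 to 1.05 for CDKB2-1. With 3 arrays a group, true line differences of any size within these intervals remain compatible with the data.

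At optimal temperature, 12 of the 38 genes were higher in line 252 than in line 082 and none was lower, where 15.3% of all probe sets were called higher and 12.1% lower. Across the 4 groups, line 252 at optimal temperature had the highest mean for 21 of the 38 genes, all 4 B cyclins and 6 of 9 D cyclins included, where it was highest for 34.3% of all probe sets. Of the 12 genes called, CYCD5-1 (3.31 ± 0.37, adjusted p = 2.19e-05) and CYCD4-2 (2.22 ± 0.28, adjusted p = 4.61e-05) differed most. They were followed by CYCP4-1 (2.14 ± 0.69, adjusted p = 0.0223), CYCA2-1 (2.05 ± 0.27, adjusted p = 7.57e-05), CYCD3-2 (2.02 ± 0.62, adjusted p = 0.0183) and CYCB2-2 (1.82 ± 0.30, adjusted p = 4.01e-04). CYCB1-1 (1.48 ± 0.23), KRP5 (1.21 ± 0.42), CYCA3-2 (1.09 ± 0.23), CYCL1-1 (1.08 ± 0.13), CYCD5-3 (1.04 ± 0.15) and CYCD6-1 (1.03 ± 0.29) completed them. CYCB2-1 just missed the fold minimum (0.995 ± 0.22, adjusted p = 0.00312), and CDKB2-1 was not called (0.32 ± 0.50, adjusted p = 0.633). Some dimmer probe sets differed from these counts. The second of CDKF-4 was called lower in line 252 (-1.41 ± 0.30, adjusted p = 0.0021), against 0.50 ± 0.18 for its brightest. The second of CYCD5-2 was called higher (1.70 ± 0.40, adjusted p = 0.00403), against -0.61 ± 0.25 for its brightest. The second of CYCB2-2 was called higher too (1.12 ± 0.31, adjusted p = 0.0112). Replicate 2 of line 252 was the highest of its group for 23 of the 38 genes, 60.5% against 30.6% of all probe sets, and without it 7 genes were called. The calls lost without it were CYCA3-2 (0.98 without it), CYCD3-2 (1.70), CYCD6-1 (0.87), CYCP4-1 (2.07) and KRP5 (1.17). Without replicate 2 of line 082, 8 genes were called, and CYCA3-2 (0.96), CYCD3-2 (1.58), CYCP4-1 (2.18) and KRP5 (1.16) were lost. CYCP4-1 also ended without replicate 3 of line 082 (1.98), as did CYCD5-3 (0.97), CYCD6-1 ended without replicate 1 of line 082 (0.80), and the KRP5 call ended without any 1 of the 6 optimal arrays. Centring on the 75th percentile ended the calls of CYCA3-2 (0.93), CYCL1-1 (0.91), CYCD5-3 (0.87) and CYCD6-1 (0.86), quantile normalization those of CYCD5-3 (0.98) and CYCD6-1 (0.96), and array weights that of CYCD6-1 (0.94). A pseudocount of 1 ended those of CYCB2-2 (1.84), CYCD3-2 (2.37) and CYCP4-1 (2.21), and one of 64 those of CYCA3-2 (0.97), CYCD5-3 (0.96) and CYCD6-1 (0.94). The endosperm marker sums given above separated the lines at this temperature, and their part in these differences was not tested.

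**Figure D5:**
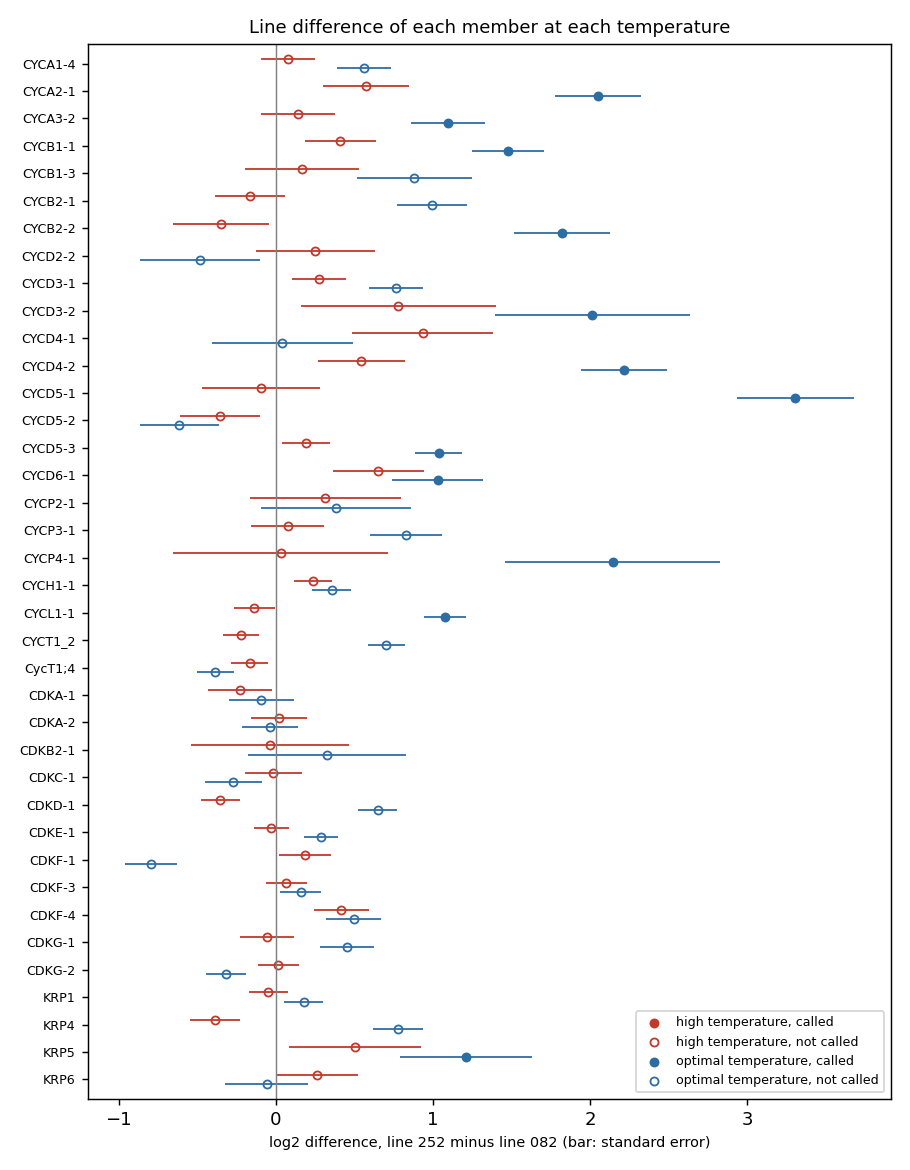
Log2 difference, line 252 minus line 082 (x axis), of each of the 38 genes tested (y axis, by class) at high and at optimal temperature; points are limma estimates from 3 arrays a group, bars are standard errors and filled points passed the test. No point at high temperature is filled, and the 12 filled points at optimal temperature all lie right of 0, up to 3.31 for CYCD5-1.

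The heat change itself differed between the lines for 9 of the 38 genes, all more negative in line 252 than in line 082, where 12.3% of all probe sets were called more negative and 11.0% more positive. CDKF-1 went the other way and just missed the fold minimum (0.98 ± 0.23, adjusted p = 0.00761). Because this contrast uses the same optimal arrays as the line difference at optimal temperature, the 2 sets of values are not independent. CYCD5-1 had the widest gap, -3.40 ± 0.53 (adjusted p = 5.65e-04), with a fall in line 252 and a rise in line 082. CYCB2-2 followed (-2.17 ± 0.43, adjusted p = 0.00261), but its second probe set gave -0.60 ± 0.44 (adjusted p = 0.338), so this gap was not seen in both probe sets, and with a pseudocount of 1 its adjusted p was 0.0751. CYCD4-2 (-1.67 ± 0.39, adjusted p = 0.00662) and CYCA2-1 (-1.48 ± 0.39, adjusted p = 0.0122) came next. CYCL1-1 (-1.21 ± 0.19, adjusted p = 5.21e-04), KRP4 (-1.16 ± 0.22, adjusted p = 0.00217) and CDKD-1 (-1.005 ± 0.18, adjusted p = 0.00123) rose in line 082 and were not called in line 252. CYCB2-1 (-1.16 ± 0.32, adjusted p = 0.0154) and CYCB1-1 (-1.07 ± 0.32, adjusted p = 0.0243) fell in both lines, further in line 252, where their signals at optimal temperature were higher. The CYCB1-1 call was lost without replicate 2 of line 252 at high temperature (-0.94), replicate 3 of line 082 at high temperature (-0.91), or replicate 1 (-1.04) or 2 (-0.95) of line 252 at optimal temperature. It was also lost with a pseudocount of 1 (-0.86) or centring on the 75th percentile (-0.95). The CDKD-1 value lay on the fold minimum, and the call was lost without any 1 of 7 arrays. Quantile normalization, centring on the 75th percentile, a pseudocount of 64 and array weights each ended the CDKD-1 call too. For CDKB2-1 the difference of the heat changes was -0.36 ± 0.71, with a 95% interval of -1.90 to 1.18, which holds the values of 7 of the 9 genes called. Among dimmer probe sets, the second of CDKF-4 had a more positive heat change in line 252 (2.08 ± 0.42, adjusted p = 0.00305) and the second of CYCD5-2 a more negative one (-1.96 ± 0.57, adjusted p = 0.02), while the brightest probe sets of both genes were not called.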

How the data were processed

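The authors deposited linear intensity values per probe set, named as MAS5 output in the submitters' processing notes; the version is not given in the sources used here. Probe sets were named through the array's platform annotation, updated by gene number through a RefSeq gene table (17905 genes found; 22436 probe sets with 1 gene and 95 with several). The genes described, the pathway and marker lists and the alternatives were chosen with earlier results of these data known. After 187 control probe sets of 57381 were set aside, 33614 above their array's median on at least 3 of 12 arrays were kept. Limma 3.58.1 in R 4.3.3 fitted 4 group means to log2(signal + 16) (8 residual degrees of freedom, intensity trend), with Benjamini-Hochberg adjustment over all 33614, for 5 contrasts, two-sided. Errors beside log2 changes are standard errors. The number of arrays limits the precision, and detection calls were not used here. Same-numbered replicates were not paired by the data (closing section). All CDKA, CDKB and KRP genes, up to 4 called genes by size of each other class, and up to 6 by size called in the difference of heat changes or between lines were named with their values; others were given as ranges. The fit was tested on simulated data. Alternatives varied scaling, pseudocount, filter, moderation, array weights, replicate block, probe set choice, fold minimum and the arrays used.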

Additional observations from a re-analysis of the deposited data

Results flagged for a closer look

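The heat change (high minus optimal temperature) of 9 genes differed between the lines by limma's test of the difference itself, in each case more negative in line 252 than in line 082. On the log2 scale the difference was -3.40 ± 0.53 for CYCD5-1, -2.17 ± 0.43 for CYCB2-2, -1.67 ± 0.39 for CYCD4-2 and -1.48 ± 0.39 for CYCA2-1. It was -1.21 ± 0.19 for CYCL1-1, -1.16 ± 0.22 for KRP4, -1.16 ± 0.32 for CYCB2-1, -1.07 ± 0.32 for CYCB1-1 and -1.005 ± 0.18 for CDKD-1. CYCD5-1 was the only one of them called in opposite directions, lower in line 252 and higher in line 082. CDKF-1, not called, had a more positive heat change in line 252, just under the fold minimum (0.98 ± 0.23, adjusted p = 0.00761). Endosperm marker sums of 130031 to 178450.3 in line 082 at optimal temperature set that group apart, it enters each of these differences, and its part in them was not tested.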

How the results depend on the processing

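The replicate numbers did not pair the arrays (2 of 18 same-numbered pairs had deviations correlated over 0.1), and with the replicate block the counts of 3 higher and 16 lower in line 252, 6 and 9 in line 082, 9 more negative heat changes and 12 higher in line 252 at optimal temperature were unchanged. Leaving out 1 array at a time gave 3 higher and 13 to 16 lower in line 252, 5 to 7 higher and 8 to 12 lower in line 082, 0 to 1 more positive and 7 to 10 more negative heat changes, 7 to 13 higher and 0 lower in line 252 at optimal temperature, and 0 different at high temperature. Without the fold minimum there were 7 higher in line 252, 12 higher and 15 lower in line 082, 1 more positive heat change, and 23 higher and 2 lower in line 252 at optimal temperature. The filter at the 75th percentile left 5 lower in line 082. Quantile normalization, centring on the 75th percentile and array weights gave 1 more positive heat change each. CDKF-1 had the most positive heat difference, 0.98 ± 0.23 (adjusted p = 0.00761).

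Scaling moved all probe sets: in line 252, 3167 were higher and 6523 lower as deposited, 4401 and 4584 after quantile normalization, 5066 and 4584 with centring on the 75th percentile, and 1699 and 10136 when scaled to hybridization spikes. In line 082 the same counts were 4788 and 7354, 6227 and 5435, 6212 and 6045, and 4057 and 8134. Their median log2 change in line 252 was -0.20, 0.07, 0.10 and -0.58 in that order, and in line 082 -0.15, 0.13, 0.04 and -0.25. The B cyclins, CYCA3-2, CYCD2-2 and CDKB2-1 were called lower in both lines under every alternative that kept them, while no gene's call turned its direction. Heat calls of cyclins, CDKs and inhibitors lost to scaling were CYCD3-2, CYCP2-1 and KRP5 in line 252 and CYCA2-1, CYCP2-1, CYCL1-1 and CDKD-1 in line 082 (quantile), CYCD3-1 and KRP5 in line 252 (75th percentile), and CDKG-2 in line 252 and CYCL1-1 and CDKD-1 in line 082 (spikes). A pseudocount of 1 ended those of CYCD3-2 and CYCP2-1 in line 252, one of 64 those of CYCP2-1 in both lines, and the mean of a gene's probe sets those of CDKG-2 in line 252 and KRP6 in line 082. The KRP5 call in line 252 also ended with no filter, with no intensity trend and with only the groups compared.

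Small changes that were not called did change sign. In line 252, CYCL1-1 was 0.15, KRP1 0.069 and KRP4 0.29 with centring on the 75th percentile, CDKD-1 -0.065 and KRP4 0.023 with quantile normalization, and CDKD-1 -0.37 with spike scaling. In line 082, KRP1 was 0.18 with centring on the 75th percentile and 0.044 with array weights. With 1 array left out, CDKD-1 ran between -0.043 and 0.13 and KRP4 between -0.12 and 0.15 in line 252, and CYCD4-2 between -0.068 and 0.39 and KRP1 between -0.066 and 0.063 in line 082. The causes of these shifts were not tested. Signals near or below the array median limit the precision of the falls of the B cyclins.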
